A study of Mus musculus with 20 samples.

Results

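Refeeding of wild-type mice was followed in the liver transcriptome by comparing 5 refed with 5 fasted livers, which are 10 of the 20 libraries of a study on the transcription factor Prox1. The 10 libraries were taken by their labels: genotype wild type, treatment fasted or refed, with the word Ctrl in the titles. The mice were male, ate regular chow and lived under 12 h of light and 12 h of dark, and the livers were collected between Zeitgeber times 15 and 17, which is in the dark phase when mice feed. The treatment text that all samples share describes Cre induction of a hepatocyte K556R form of Prox1 at 8 weeks of age and collection 11 weeks later; whether the wild-type mice also received Cre, how long the mice were fasted and refed, and whether each library is 1 animal cannot be read from the labels. The p-values therefore measure the spread between these libraries. Each group had 4 libraries from batch 1 and 1 from batch 2, so feeding and batch were balanced, and libraries are named by repeat number and batch, such as 1_b1.

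Fasting lowers insulin and raises glucagon and glucocorticoids. The liver then makes glucose from amino acids and glycerol, oxidizes fatty acids to ketone bodies and recycles its own protein through autophagy, and the transcription factors FOXO1, CREB, the glucocorticoid receptor and PPARA carry much of that program. With a meal, insulin excludes FOXO1 from the nucleus and activates SREBP1c and MTORC1, glucose activates ChREBP, and hepatocytes resume the synthesis of fat, glycogen and secreted plasma proteins. Secreted proteins are folded and glycosylated in the endoplasmic reticulum (ER), whose chaperone genes answer to the sensors of the unfolded protein response.

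The libraries held 34221619 to 45860019 counts. The first principal component of the log2 levels carried 60.5% of the variance and separated the groups, with refed libraries at 28.3 to 37.9 and fasted libraries at −44.3 to −14.4. Fasted 1_b2 was the fasted library nearest the refed ones, and fasted 2_b1 stood apart in macrophage transcripts, as described with the markers of other cells. The scavenger receptor gene Marco, for example, was at 20.4 CPM (read counts scaled to a library of 1000000 reads, with TMM factors between libraries) in fasted 2_b1 and at 1.70 CPM at most in the other libraries. No library repeated another within counting noise. In whole tissue, a lower level of a transcript can mean less RNA per cell or fewer cells that make it, and these cannot be told apart.

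Of 13367 genes tested, 3247 (24.3%) were higher and 3426 (25.6%) lower in refed than in fasted livers at an adjusted p under 0.05, by edgeR's quasi-likelihood test with batch as a term and Benjamini-Hochberg adjustment over all genes tested; a gene is called when it passes this test. Together 49.9% of the genes were called. The 5 fasted and 5 refed levels did not overlap for 4785 genes (35.8%), of which 4733 were called. Most differences were small: the median absolute log2 fold change of called genes was 0.466, and 465 higher and 455 lower genes passed 1 on the log2 scale. With upper-quartile scaling in place of TMM, 4073 genes were higher and 2834 lower, so that 59% and not 48.7% of the called genes were higher. That scaling moved the median log2 fold change of all genes from −0.003 to 0.067. The counts of each gene list below are to be read against the shares over all genes, 24.3% higher and 25.6% lower, which the plot of list shares marks for each list.

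**Figure D1:**
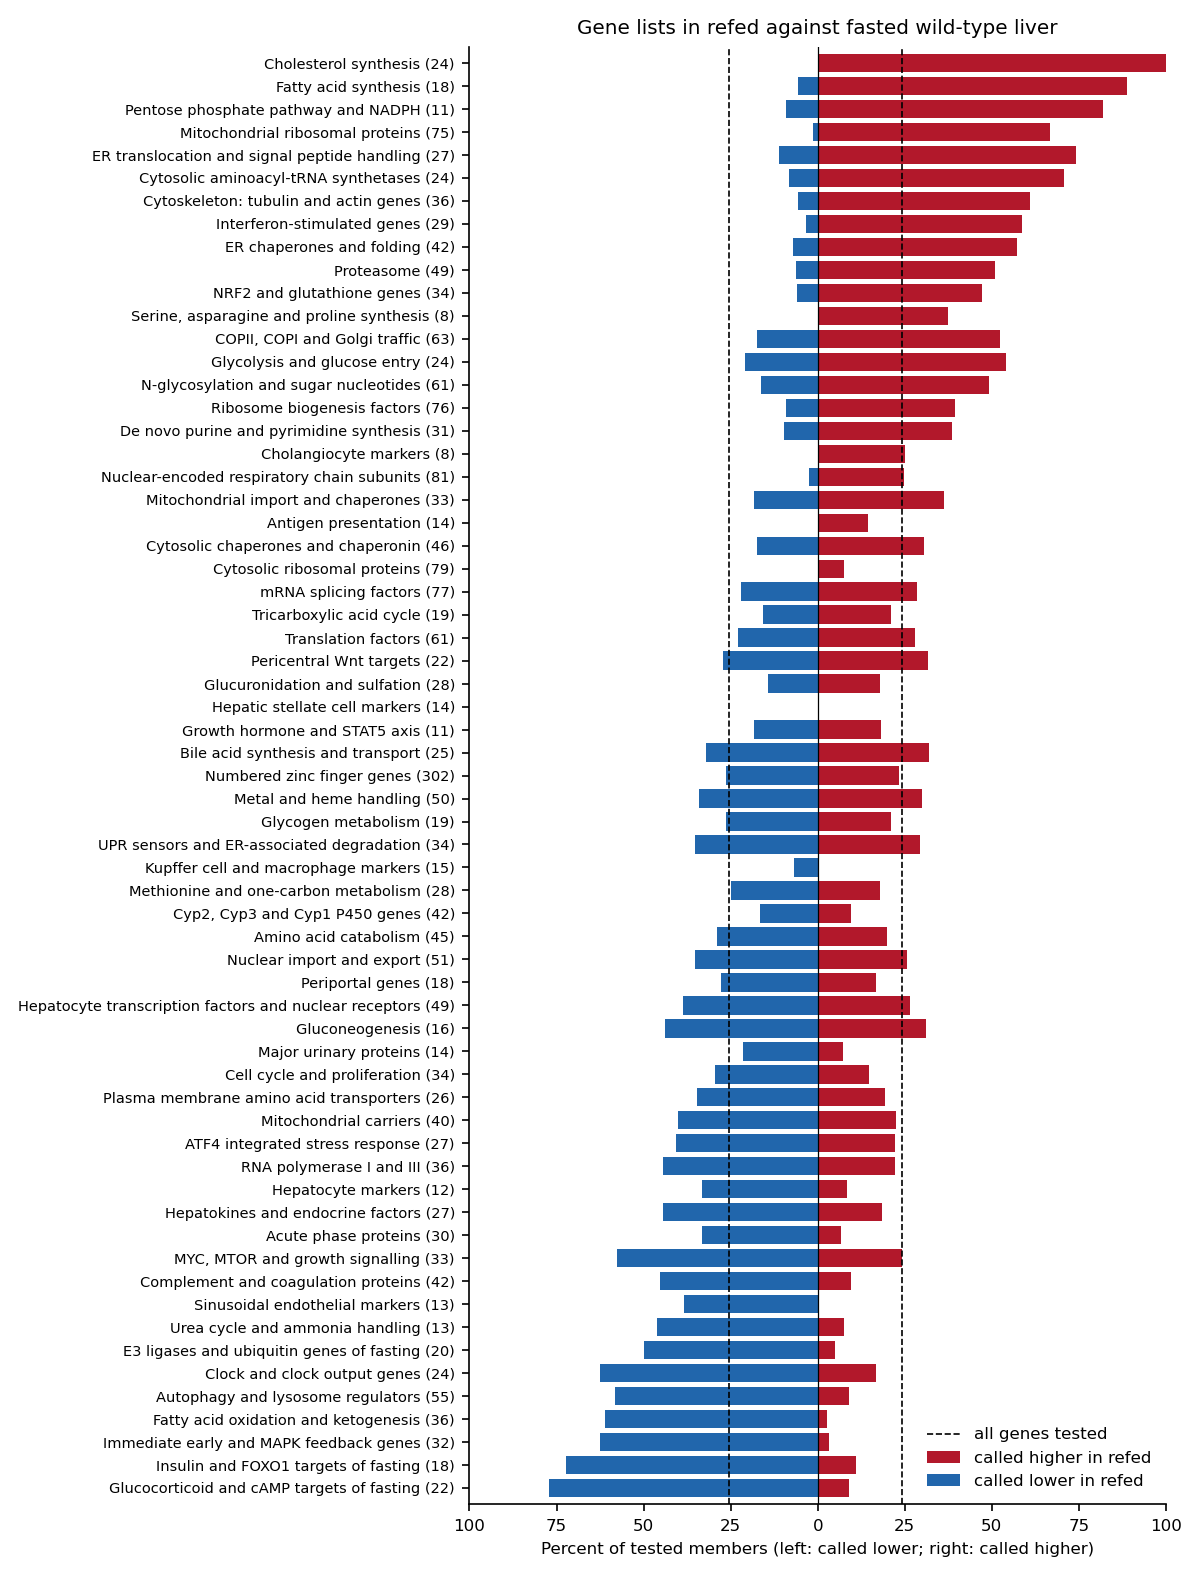
Share of the tested members of each gene list called higher (to the right) or lower (to the left) in refed wild-type livers, in percent, for the 63 lists with at least 8 tested members; dashed lines mark the shares over all genes tested, 24.3% higher and 25.6% lower, and the number after each name is the count of tested members. Cholesterol synthesis, fatty acid synthesis, the pentose phosphate pathway and ER translocation reach farthest right, and the hormone targets, immediate early genes and clock genes reach farthest left.

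The genes with the lowest p were not mainly those of lipid synthesis. Among genes with higher levels, the lowest p belonged to Hdhd3, a member of the haloacid dehalogenase family of hydrolases, with 6.19, 6.07, 5.70, 5.06 and 5.87 CPM in the fasted livers and 29.5, 29.6, 25.8, 27.8 and 24.5 CPM in the refed livers. The lowest refed level of Hdhd3 was thus far above the highest fasted level, at a log2 fold change of 2.24 (SE 0.08, adjusted p = 4.04e-08). Next came Gmppb, which makes GDP-mannose for glycoproteins, with a log2 fold change of 1.64, and the alpha-tubulin gene Tuba1c with 1.98. The 12 genes with the lowest p also held the lipid genes Thrsp (2.27) and Insig1 (1.90), the ribosome assembly gene Utp14b (1.49), Ethe1 of mitochondrial sulfide oxidation (1.72), Rassf6 (2.08), Anks4b (1.47), the metalloprotease Adamts7 (1.40) and Ostc of the oligosaccharyltransferase (1.18), all as log2 fold changes.

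Among genes with lower levels, the lowest p belonged to Klhl21, an adaptor of cullin ubiquitin ligases, which had 76.4, 77.1, 76.7, 77.3 and 61.3 CPM in the fasted and 26.9, 24.1, 24.1, 21.2 and 22.1 CPM in the refed livers. Its levels did not overlap, and the log2 fold change was −1.63 (SE 0.06, adjusted p = 1.15e-07). Angptl4, which inhibits lipoprotein lipase, followed with a log2 fold change of −2.95. Genes of mRNA translation and decay were next to it, with Eif4b, a helper of the cap-dependent helicase, at −1.17 and Rc3h1, an mRNA decay factor, at −1.08. The Wnt coreceptor gene Lrp6 fell by 0.91 on the log2 scale, the kelch adaptor gene Klhl24 by 1.59 and the adaptor gene Sorbs3 by 1.56. Cpt1a, the entry enzyme of mitochondrial fatty acid oxidation, had −1.37 and its regulator Ppara −1.13. D4Bwg0951e (−1.41), Tcp11l2 (−1.47) and Tram2 (−1.37) completed the 12.

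The largest fall was in Ppp1r3g, a glycogen-targeting subunit of protein phosphatase 1 (chr13:35958839-35970388, plus strand, GRCm38). Its levels were 4.97, 13.6, 95.4, 57.7 and 6.47 CPM in the fasted and 0.168, 0.308, 0.148, 0.256 and 0.108 CPM in the refed livers, so it was nearly silent in every refed library and ranged widely among fasted ones, with 1_b1 and 1_b2 lowest. The metallothionein genes Mt2 and Mt1, whose products bind zinc and copper, followed. Mt2 was at 131, 113, 31.3, 66.9 and 8.01 CPM in the fasted and 1.17, 0.593, 0.665, 0.699 and 0.628 CPM in the refed livers, a log2 fold change of −6.38 (SE 0.64, adjusted p = 7.60e-05). Mt1 moved alike at −4.89, and both had their lowest fasted level in 1_b2. Fam107a (−5.15), Btbd19 (−3.74), the surfactant gene Sftpa1 (−3.39) and the splicing factor gene Bud13 (−3.34) were the others beside Igfbp1.

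Among genes with a mean log2 CPM of at least 1 and a regular gene symbol, the largest rises were in lipid genes, led by the lipid droplet enzyme gene Pnpla3 (6.21), Mvd of the mevalonate pathway (3.92) and Fasn (3.84). Other large rises were in genes of membrane transport and signalling. The water channel gene Aqp8 was at 11.97, 13.5, 12.3, 9.44 and 30.3 CPM in the fasted and 76.3, 173, 170.0, 211 and 105 CPM in the refed livers, which did not overlap (3.35). The nicotinic receptor subunit gene Chrna4 (3.28), the phosphate transporter gene Slc34a2 (3.26) and Fam83f (3.21) also rose by over 3 on the log2 scale.

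**Figure D2:**
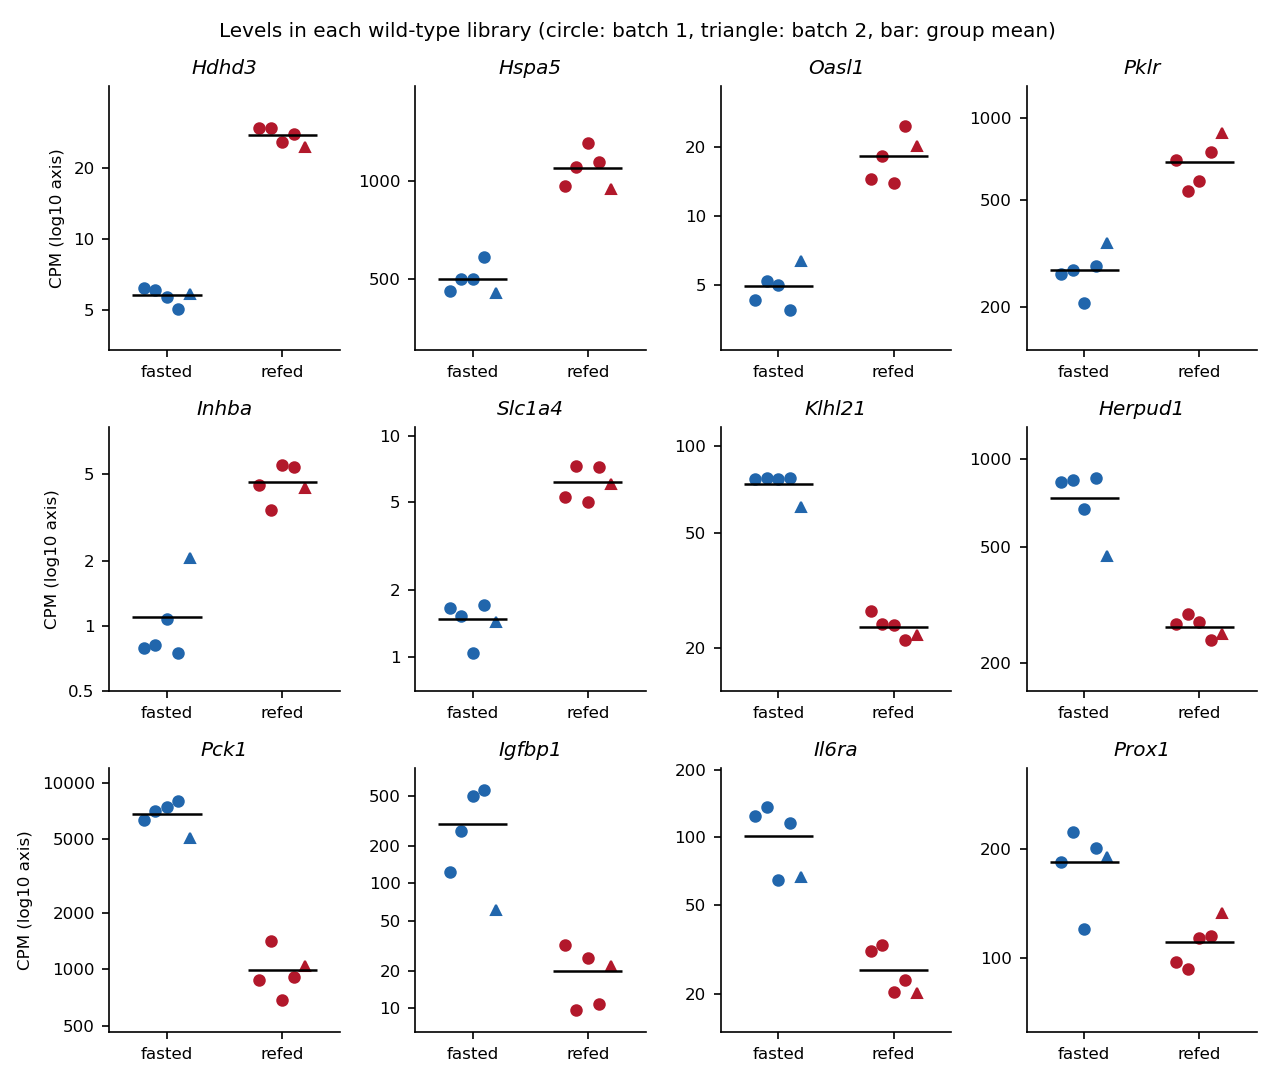
Level of 12 genes in each wild-type library on a log10 axis of CPM; circles are batch 1, triangles batch 2, and horizontal bars are group means (n = 5 each). Fasted and refed levels are separate for every gene shown except Prox1.

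Fasting genes that insulin represses were lower in refed livers. Of 18 tested genes of the insulin and FOXO1 list, 13 were lower and 2 higher, with a median log2 fold change of −1.061. Igfbp1, a secreted binding protein of insulin-like growth factors (chr11:7197782-7202546, plus strand, GRCm38), was at 123, 262, 497, 559 and 61.5 CPM in the fasted and 31.9, 9.62, 25.1, 10.9 and 21.7 CPM in the refed livers. The fasted libraries differed from one another, with 1_b1 and 1_b2 lowest, yet every one lay above every refed library (−3.74, SE 0.70, adjusted p = 0.00238). Pck1, the rate-limiting enzyme of gluconeogenesis, had 6311, 7021, 7402, 7977 and 5058 CPM in the fasted and 876, 1423, 689.6, 912 and 1044 CPM in the refed livers. The groups were separate, and the log2 fold change was −2.76 (SE 0.20, adjusted p = 5.28e-06). G6pc, which releases free glucose, fell by 1.59 and Irs2, the insulin receptor substrate that FOXO1 induces, by 2.34 on the log2 scale. Foxo1 itself fell by 1.60, the cyclin gene Ccng2 by 1.17, the insulin receptor gene Insr by 0.64 and Klf15, a regulator of amino acid breakdown, by 1.09. Gadd45a, a stress gene on the same list, rose by 1.85.

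The promoters of Ccng2 and Irs1, both on this list, are shown because they hold a FOXO element, the bases CAAAACA or TATTTTG on either strand, in the 250 bases before the transcript start (RefSeq, build GRCm38.p6). Capitals mark the element. It was found for 5 of the 15 genes of the list with a window and for 823 of 10013 tested genes with a window (8.22%). The windows searched were 300 bases long and ended 50 bases past the start. Of higher genes with a window 8.07% held the element, and of lower genes 8.36%. Ccng2 lies at chr5:93267323-93267572 (plus strand) and Irs1, which fell by 0.64 and was chosen for this purpose after its values were seen, at chr1:82291440-82291689 (minus strand).
Ccng2: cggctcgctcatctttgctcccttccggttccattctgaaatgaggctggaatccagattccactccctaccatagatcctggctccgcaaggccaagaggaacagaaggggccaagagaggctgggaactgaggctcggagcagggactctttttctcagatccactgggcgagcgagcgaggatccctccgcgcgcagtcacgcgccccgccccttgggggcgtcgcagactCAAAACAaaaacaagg
Irs1: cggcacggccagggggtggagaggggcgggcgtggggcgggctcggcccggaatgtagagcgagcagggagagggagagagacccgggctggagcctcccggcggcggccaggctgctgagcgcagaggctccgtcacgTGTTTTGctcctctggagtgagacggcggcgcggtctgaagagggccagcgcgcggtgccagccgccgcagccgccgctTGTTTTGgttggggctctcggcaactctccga
A match of letters does not show that a factor binds there.

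Targets of glucocorticoids and cyclic AMP fell with them. Of 22 tested genes on that list, 17 were lower and 2 higher, and the median log2 fold change was −1.640. Klf9, a Kruppel-like factor induced by glucocorticoids, fell by 1.36 (adjusted p = 6.65e-07), Cebpd by 2.12, the clock gene Per1 by 1.79 and Creb3l3, a liver transcription factor activated by proteolysis, by 0.59. Immediate early genes and inhibitors of MAP kinase signalling behaved alike: 20 of 32 tested were lower and 1 was higher, with a median of −0.725. Dusp8, a phosphatase of JNK, was at 1.51, 1.15, 3.04, 1.91 and 0.471 CPM in the fasted and 0.112, 0.261, 0.295, 0.280 and 0.151 CPM in the refed livers (−2.77, adjusted p = 6.97e-05). Nfkbia, the inhibitor of NF-kappaB, fell by 1.14, the matricellular gene Ctgf by 1.78, the small GTPase gene Rhob by 0.67 and the RAS pathway inhibitors Spred1 and Spred2 by 0.83 and 0.82.

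Genes of hormones made by the liver were lower more often than all genes, and some rose. Of 27 tested, 5 were higher (18.5%, beside 24.3% over all genes) and 12 lower (44.4%, beside 25.6%), with a median of −0.210. The higher count was 3 without fasted 2_b1 or without refed 1_b1. The row named Gm6484, an older symbol of Angptl8, an insulin-induced inhibitor of lipoprotein lipase, rose from 7.44 ± 3.31 to 103 ± 41.5 CPM (3.79, adjusted p = 1.45e-04). The 2 activin subunit genes went in opposite directions. Inhba was at 0.788, 0.819, 1.07, 0.747 and 2.06 CPM in the fasted and 4.47, 3.41, 5.51, 5.41 and 4.31 CPM in the refed livers, and Inhbb was at 1.66, 1.69, 1.70, 0.802 and 1.29 CPM in the fasted and 0.168, 0.355, 0.197, 0.420 and 0.195 CPM in the refed livers. Both differences passed the test, at log2 fold changes of 2.13 and −2.40. The genes Igfals, which forms the circulating complex of insulin-like growth factors, and Igfbp4, a binding protein, changed by 0.63 and −0.47. Among 11 tested genes of the growth hormone and STAT5 axis, 2 were higher and 2 lower (18.2% each). Stat5a rose by 0.48 and Socs3, a feedback inhibitor, fell by 1.01, a call that was lost without refed 3_b1, while the receptor gene Ghr had a log2 fold change of 0.06 that did not pass (adjusted p = 0.432).

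More glucose-using genes were higher than lower, and glucose-making genes were called in both directions. Of 24 tested genes of glycolysis and glucose entry, 13 were higher and 5 lower (median 0.329), and of 11 tested genes of the pentose phosphate pathway and NADPH supply, 9 were higher and 1 lower (median 0.457). Pklr, the liver pyruvate kinase, rose from 275 ± 49.4 to 692 ± 135 CPM (1.33, SE 0.11, adjusted p = 4.71e-06). Genes of the bifunctional kinases that switch between glycolysis and gluconeogenesis fell: Pfkfb3 by 2.79 and Pfkfb2 by 1.22 on the log2 scale. Tpi1 (0.47) and Gapdh (0.41) rose, and Aldoa fell (−0.55).

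In the pentose phosphate list, Pgd of the oxidative branch rose by 1.35, Rpia by 1.49, Tkt by 0.46 and the NADPH-forming malic enzyme gene Me1 by 1.14, and Dak, an older symbol of the triokinase gene Tkfc of fructose metabolism, by 1.03. H6pd, which feeds a separate NADPH pool inside the ER, fell by 0.84. Of 16 genes of gluconeogenesis, 5 were higher and 7 lower (median −0.189): beside Pck1 and G6pc, the transaminase gene Got1 fell by 1.99 and the ATP-Mg carrier gene Slc25a25 by 1.68, and Gpd1 of the glycerol phosphate shuttle rose by 0.47 and the dicarboxylate carrier gene Slc25a10 by 0.34. Glycogen genes were called at shares near those of all genes, with 4 higher (21.1%) and 5 lower (26.3%) of 19. The phosphorylase gene Pygl rose by 0.63 and the phosphatase targeting gene Ppp1r3b by 0.68, in contrast to its relative Ppp1r3g, and the glycogen synthase kinase genes Gsk3a and Gsk3b fell by 0.41 and 0.40. In the tricarboxylic acid cycle 4 of 19 were higher (21.1%) and 3 lower (15.8%), no more than over all genes, with citrate synthase (Cs, 0.61) and Ogdh (−0.49) on opposite sides.

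Genes of amino acid catabolism were called about as often as all genes, though their mean summed level was lower in refed livers. Of 45 tested, 9 were higher and 13 lower, shares of 20% and 28.9% beside 24.3% and 25.6% over all genes, with a median of 0.017. The summed level was 26805 ± 4058 CPM in fasted and 19819 ± 1757 CPM in refed livers (SD, n = 5 each), with overlapping ranges. The largest fall on the list was −1.99. The lysine enzyme gene Aass fell by 0.88 and Sdsl by 0.70, and Bckdk, the kinase that inhibits branched-chain amino acid oxidation, rose by 0.59, Amt of glycine cleavage by 0.63 and Haao by 0.38. In the urea cycle list 6 of 13 were lower and 1 higher (median −0.132). The glutamate carrier gene Slc25a22 (−1.36) led it, arginase (Arg1, −0.33) and argininosuccinate lyase (Asl, −0.34) fell less, and Nags, which makes the activator of the cycle, rose (0.32). With upper-quartile scaling, and without fasted 4_b1, refed 3_b1 or refed 4_b1, the lower count of this list was 3. Genes of one-carbon metabolism did not exceed the shares of all genes, with 5 higher (17.9%) and 7 lower (25%) of 28, and with Shmt1 at 0.79 and Mat1a, which makes S-adenosylmethionine, at −0.64.

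Amino acid transporter genes of the plasma membrane included large changes in both directions, with 5 higher and 9 lower of 26. Slc7a2, a carrier of cationic amino acids, was at 1330.4, 1758, 1649, 1833 and 913 CPM in the fasted and 264, 435, 209, 249.5 and 283 CPM in the refed livers (−2.34, adjusted p = 3.87e-05). Slc1a4, a carrier of neutral amino acids, rose by 2.06, and Slc6a6, the taurine transporter gene, by 0.64. The glycine transporter gene Slc6a9 fell by 1.07 and Slc38a4 by 0.79. Of 27 tested genes of the ATF4 stress response, 6 were higher and 11 lower (median −0.132): Atf4 rose by 0.57 and the asparaginyl-tRNA synthetase gene Nars by 0.43, and the stress effectors Sesn2, Chac1, Trib3 and Ppp1r15a fell by 1.61, 1.73, 1.06 and 0.99. Of the 8 tested genes of serine, asparagine and proline synthesis, 3 rose and none fell.

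In the secretory pathway more genes were higher than lower at each stage listed. At the translocation channel, 20 of 27 tested genes were higher and 3 lower (median 0.335), and among ER chaperones and folding enzymes 24 of 42 were higher and 3 lower (median 0.336). The summed level of the chaperone list went from 5319 ± 437 CPM in fasted to 7927 ± 733 CPM in refed livers (SD, n = 5 each). N-glycosylation had 30 higher and 10 lower of 61 (median 0.166; 6 lower with upper-quartile scaling), and COPII, COPI and Golgi traffic 33 higher and 11 lower of 63 (median 0.209).

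Hspa5 encodes BiP, the main ER chaperone (chr2:34771970-34777547, plus strand, GRCm38), and was at 459.8, 499, 499, 582 and 453 CPM in the fasted and 962, 1104, 1301, 1139 and 944 CPM in the refed livers. All refed levels exceeded all fasted levels, and the log2 fold change was 1.13 (SE 0.09, adjusted p = 3.35e-06). Manf, a secreted ER stress protein, rose by 1.92, the BiP exchange factor gene Hyou1 by 1.45, the disulfide isomerase gene Pdia4 by 1.28 and the oxidoreductase gene Tmx2 by 0.64. Xbp1, a transcription factor of the unfolded protein response, rose by 0.73. The counts do not separate its spliced from its unspliced form.

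In the translocation list, the signal peptidase gene Spcs2 rose by 0.81, the translocon-associated gene Ssr1 by 0.81, the channel gene Sec61a1 by 0.66 and the receptor gene Srprb by 0.62, whereas Tram2 fell by 1.37. In the glycosylation list, Gmppb was at 6.70, 8.09, 6.95, 7.03 and 7.54 CPM in the fasted and 22.9, 23.1, 23.7, 21.03 and 22.1 CPM in the refed livers. Its partner Gmppa rose by 0.81, the nucleotide carrier gene Slc35b1 by 1.17, the mannosyltransferase genes Alg12 and Alg2 by 0.89 and 0.84, and Magt1 by 0.70. In vesicle traffic, the COPII coat gene Sec23b rose by 1.10, the cargo receptor genes Tmed3 and Tmed9 by 1.29 and 0.68, Preb by 0.55, Tfg by 0.63 and the COPI gene listed as Copg, now Copg1, by 0.65.

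Genes of the sensors and the disposal arm of the ER were divided, unlike those of the chaperones. Of 34 tested genes of the unfolded protein response sensors and ER-associated degradation, 10 were higher (29.4%) and 12 lower (35.3%), and the median was −0.051. Herpud1, which organizes the degradation complex, was at 835, 843, 672, 857 and 467 CPM in the fasted and 271, 293, 276, 239.7 and 252 CPM in the refed livers and so went opposite to Hspa5 (−1.44, SE 0.12, adjusted p = 4.99e-06). Herpud2 fell by 0.53, and Ubxn4, Derl2 and Atf6b rose by 0.70, 0.63 and 0.79.

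The promoters of 4 chaperone genes are shown because they hold the ER stress element, CCAAT and CCACG separated by 9 bases, to which ATF6 and NF-Y are known to bind. Either strand was searched in RefSeq windows of 300 bases (GRCm38.p6), and the 250 bases before the start are printed. The element was found for 20 of 10013 tested genes with a window (0.2%), for 13 of 2504 higher genes and for 0 of 2608 lower genes. These are counts of gene symbols, and the 20 and the 13 hold both Pan2 and Usp52, an older symbol of Pan2. In the chaperone list 8 of 36 genes with a window held the element, namely Calr, Canx, Creld2, Dnajc3, Ero1lb, Hsp90b1, Hspa5 and Pdia6, and 6 of these 8 genes were higher. The exceptions were Canx (0.14, adjusted p = 0.0522) and Dnajc3 (0.01, adjusted p = 0.872). Outside the list it stood before other genes, some of them higher and some not called. Syvn1 and Alg12, a ligase of ER-associated degradation and the mannosyltransferase named above, were among the higher ones and are named for their place in the ER. Capitals mark both boxes, which read CGTGG and ATTGG where the element lies on the other strand. The windows were at chr2:34771840-34772089 (plus strand) (Hspa5), chr8:84846932-84847181 (minus strand) (Calr), chr15:88819396-88819645 (plus strand) (Creld2) and chr12:17266339-17266588 (plus strand) (Pdia6).
Hspa5: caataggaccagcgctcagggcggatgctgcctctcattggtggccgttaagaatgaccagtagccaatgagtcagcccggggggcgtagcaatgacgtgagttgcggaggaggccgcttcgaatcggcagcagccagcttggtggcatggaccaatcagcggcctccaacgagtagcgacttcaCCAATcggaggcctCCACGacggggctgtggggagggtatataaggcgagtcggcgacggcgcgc
Calr: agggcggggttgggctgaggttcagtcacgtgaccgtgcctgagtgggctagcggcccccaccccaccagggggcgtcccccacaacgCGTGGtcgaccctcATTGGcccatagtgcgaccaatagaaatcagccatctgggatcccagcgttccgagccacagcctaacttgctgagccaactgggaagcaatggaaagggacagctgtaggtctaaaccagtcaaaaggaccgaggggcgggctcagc
Creld2: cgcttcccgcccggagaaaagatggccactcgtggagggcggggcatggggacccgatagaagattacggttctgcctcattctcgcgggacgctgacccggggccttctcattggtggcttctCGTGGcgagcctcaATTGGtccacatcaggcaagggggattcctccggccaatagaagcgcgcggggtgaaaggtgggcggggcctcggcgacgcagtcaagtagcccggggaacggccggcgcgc
Pdia6: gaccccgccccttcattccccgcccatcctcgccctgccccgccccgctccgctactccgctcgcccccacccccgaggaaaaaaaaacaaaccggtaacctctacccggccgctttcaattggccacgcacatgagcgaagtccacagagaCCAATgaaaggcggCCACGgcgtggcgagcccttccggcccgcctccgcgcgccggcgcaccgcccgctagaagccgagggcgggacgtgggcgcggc
The 3 genes beside Hspa5 rose by 0.98, 0.98 and 0.56 on the log2 scale; genes named here only for the element were chosen after their values were seen.

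Few genes of the secreted proteins themselves rose. Of 42 tested genes of complement and coagulation proteins, 4 were higher and 19 lower (median −0.147), and of 30 acute phase genes 2 were higher and 10 lower (median −0.112). The 19 were 11 with upper-quartile scaling and 12 without fasted 4_b1. Coagulation factor V (F5) fell by 0.55, protein S (Pros1) by 0.66, C8a by 0.46 and F12 by 0.28, while Hgfac and Masp2 rose by 0.34 and 0.29. The largest falls among acute phase genes were in receptors of the cytokines that drive the response. Il6ra was at 124, 136, 64.6, 116 and 66.2 CPM in the fasted and 31.1, 33.2, 20.4, 23.03 and 20.2 CPM in the refed livers (−1.97, adjusted p = 1.24e-04), and Il1r1 fell by 2.22 and its antagonist gene Il1rn by 1.35. The plasma proteins Lbp, Serpina3n and Hp fell by 1.06, 0.39 and 0.39. Albumin (Alb) had a log2 fold change of −0.11 that did not pass (adjusted p = 0.381).

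**Figure D3:**
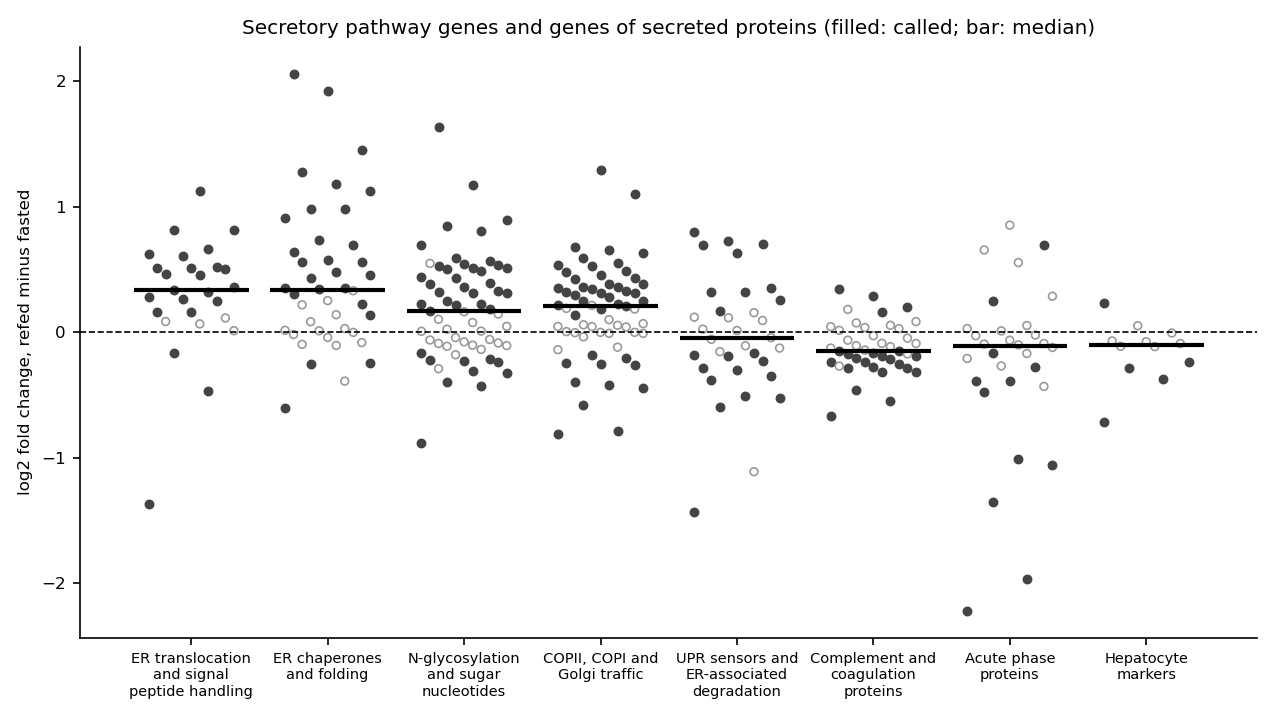
Log2 fold change, refed minus fasted, of each tested member of 8 gene lists, from ER entry to the genes of secreted proteins and hepatocyte markers; filled points were called, open points were not, black bars are list medians, and the dashed line marks 0. Medians of the translocation and chaperone lists are 0.335 and 0.336, and those of complement and coagulation and of acute phase genes are −0.147 and −0.112.

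Among genes for making proteins, the share called differed widely between lists. Of 75 tested genes of the mitochondrial ribosome, 50 were higher and 1 lower (median 0.229), and of 24 cytosolic aminoacyl-tRNA synthetase genes 17 were higher and 2 lower (median 0.323). Mrps27 led the former from 18.00 ± 1.58 to 37.9 ± 4.46 CPM (1.07, adjusted p = 5.00e-06), followed in p by Mrpl16 (0.55) and Mrps34 (0.46). The synthetase genes Wars, Farsb and Lars rose by 0.82, 0.79 and 0.54. By contrast, of 79 cytosolic ribosomal protein genes 6 were higher and none lower (median 0.064), a smaller share than the 24.3% over all genes. The largest of the 6 was Rpl3 (0.28), and the others, Rpl27, Rpl11, Rpl35, Rps26 and Rpsa, lay between 0.13 and 0.19. This count rested on the scaling and on single libraries: 34 were higher with upper-quartile scaling, 20 without fasted 4_b1, 2 or 3 without fasted 1_b1, 2_b1 or 1_b2 or refed 1_b1, 3_b1 or 1_b2, and 1 without both fasted 2_b1 and 1_b2.

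Among ribosome assembly factors more genes rose than fell, with 30 higher and 7 lower of 76 (median 0.074), and 18 higher without both fasted 2_b1 and 1_b2. Mybbp1a rose by 0.68, Dkc1, the pseudouridine synthase of ribosomal RNA, by 0.59, Ltv1 by 0.53 and Rpf2 by 0.49. The genes of RNA polymerases I and III went the other way, with 8 higher and 16 lower of 36 (median −0.119; 10 lower with upper-quartile scaling). Bdp1 of the polymerase III initiation factor fell by 0.90, Ubtf, the activator of ribosomal RNA genes, by 0.57 and the shared subunit gene Polr1c by 0.59, and Polr3k and Taf1b rose by 0.85 and 0.79. Translation factors were near the shares of all genes, with 17 higher (27.9%) and 14 lower (23%) of 61 (median 0.065), and with 30 higher under upper-quartile scaling and 8 without both fasted 2_b1 and 1_b2. Eif4b was at 401, 399, 372, 408 and 358 CPM in the fasted and 188, 172, 166, 169 and 168 CPM in the refed livers, which did not overlap (adjusted p = 1.75e-07). The elongation factor gene Eef2 fell by 0.61 and its inhibitory kinase gene Eef2k rose by 1.08, the cap-binding gene Eif4e rose by 0.40, and the repressor gene Eif4ebp2 fell by 0.53.

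Genes of protein breakdown separated by route. Of 55 tested genes of autophagy and lysosome regulation, 32 were lower and 5 higher (median −0.245). Map1lc3b, which encodes the LC3B protein of the autophagosome membrane, was at 159.6, 156, 163, 167 and 138 CPM in the fasted and 96.2, 87.8, 83.3, 74.4 and 82.4 CPM in the refed livers (−0.88, adjusted p = 3.05e-06). Fnip1 and Flcn, partners in amino acid signalling to MTORC1, fell by 1.38 and 1.13, the initiating kinase gene Ulk1 by 0.91, Gabarapl1 by 1.26 and the receptor gene Calcoco1 by 1.09. The ubiquitin genes of fasting fell as well, 10 lower and 1 higher of 20: Fbxo31 by 2.20, the deubiquitinase gene Usp2 by 1.52, Cblb by 1.39 and Fbxo32, known as atrogin in muscle wasting, by 1.36. Proteasome genes rose instead, with 25 higher and 3 lower of 49 (median 0.146), or 14 higher without both fasted 2_b1 and 1_b2, among them Psmd14 (0.53), Psmc4 (0.39), Psmd5 (0.35) and the immunoproteasome gene Psmb9 (0.60). The assembly chaperone gene Psmd9 went against them (−1.03).

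Cytosolic chaperone genes were near the shares of all genes, with 14 higher (30.4%) and 8 lower (17.4%) of 46, and 8 higher without both fasted 2_b1 and 1_b2. The HSP90 partners Stip1 and Fkbp4 rose by 0.74 and 0.85, the chaperonin gene Cct3 by 0.65 and Dnajb2 by 0.63, and the small heat shock gene Hspb8 fell by 0.62. In growth signalling 19 of 33 genes were lower and 8 higher (median −0.259), including the MAX dimer gene Mxd1 (−0.90) and Rictor of MTORC2 (−0.58), and Mlx, the partner of ChREBP, rose (0.48). Nucleotide synthesis rose in 12 of 31 genes and fell in 3: Umps by 1.19, Cad, which starts pyrimidine synthesis, by 1.06, Ctps by 0.73 and Atic of purine synthesis by 0.67. Of 34 cell cycle genes 10 were lower (29.4%) and 5 higher (14.7%), with a median of −0.223, and with Ccne1 at −1.96, Gadd45b at −2.55 and Cdk1 at −1.04.

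Cytoskeleton genes rose, with 22 higher and 2 lower of 36 (median 0.342). Tuba1c was at 19.96, 22.1, 25.6, 21.9 and 19.3 CPM in the fasted and 76.6, 85.2, 83.2, 99.4 and 84.3 CPM in the refed livers, which were separate. The cytoplasmic actin genes, often used as references, rose too: Actb was at 131, 127, 139.5, 122 and 132 CPM in the fasted and 283, 404, 420.3, 468 and 355 CPM in the refed livers (1.57, SE 0.12, adjusted p = 3.63e-06), and Actg1 rose by 2.22. Tuba4a, the gamma-tubulin gene Tubg1 and the tubulin cofactor gene Tbce rose by 1.03, 0.53 and 0.45. Tubulin and actin genes resemble their paralogs, and the labels do not say how shared reads were counted.

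Clock genes were lower in refed livers, 15 of 24 against 4 higher (median −0.401), although all livers were labelled with the same hours of collection. Nr1d2, a nuclear receptor of the clock, was at 95.5, 104, 133, 126 and 121 CPM in the fasted and 56.5, 37.2, 34.9, 25.9 and 54.97 CPM in the refed livers (−1.48, adjusted p = 3.18e-04). Per1, which is also a glucocorticoid and cyclic AMP target, was at 74.2, 85.4, 89.8, 81.5 and 55.9 CPM in the fasted and 25.7, 24.1, 15.6, 24.5 and 20.6 CPM in the refed livers, and Tef, Nfil3 and Csnk1d fell by 0.62, 0.76 and 0.31. The hour of each liver within the labelled window is not given, and its part in these differences was not tested.

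Transcription factors of hepatocytes were lower in 19 and higher in 13 of 49 (median −0.184). Hnf4a, the central hepatocyte factor, was at 959, 1007, 1020.2, 965 and 742 CPM in the fasted and 606, 586, 544, 558 and 539 CPM in the refed livers (−0.72, SE 0.07, adjusted p = 7.94e-06). The coactivators Lpin1, Ppargc1b and Ncoa2 fell by 2.997, 1.41 and 0.48, and Rxrb by 0.58. Prox1, the gene the study was built on (chr1:190118035-190170714, minus strand, GRCm38), was at 184, 224, 120.0, 202 and 189.7 CPM in the fasted and 97.2, 93.1, 113, 115 and 133 CPM in the refed wild-type livers. Its log2 fold change was −0.74 (SE 0.15, adjusted p = 0.00272). The groups overlapped in that fasted 3_b1 lay below refed 1_b2.

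Of the other nuclear lists, splicing factors and numbered zinc finger genes stayed near the shares of all genes, and nuclear transport genes were lower more often. Splicing factors were higher in 22 (28.6%) and lower in 17 (22.1%) of 77 (median 0.068), with Prpf31 at 0.91 and Srsf4 at −0.63. The lower count was 10 with upper-quartile scaling and 11 without fasted 4_b1. Nuclear transport genes were higher in 13 (25.5%) and lower in 18 (35.3%) of 51 (median 0.002), with the exportin gene Xpo1 at 0.71 and the importin gene Tnpo1 at −0.44. The numbered zinc finger genes, 302 tested, were higher in 70 (23.2%) and lower in 79 (26.2%), with a median of −0.007. A scan over all symbol stems with at least 8 tested genes found the largest shares called higher for Exosc (RNA exosome subunits, 8 of 10), Commd (7 of 10), Mrpl (32 of 46), Parp (8 of 12), Mrps (18 of 28) and Nol (nucleolar proteins, 5 of 8). The largest shares called lower were in Setd (7 of 9), Klf (Kruppel-like factors, 9 of 13), Akap (kinase anchoring proteins, 8 of 12), Arid (6 of 9), Phf (13 of 20) and Mtmr (7 of 11).

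In mitochondria, nuclear-encoded subunits of the respiratory chain were higher in 20 and lower in 2 of 81 (median 0.080), so the share called higher, 24.7%, was near that of all genes and few fell. The 20 were 50 with upper-quartile scaling, 31 without fasted 4_b1, 8 to 13 without fasted 2_b1 or 1_b2 or refed 1_b1 or 1_b2, and 4 without both fasted 2_b1 and 1_b2. Ndufa8, Atp5g1 and cytochrome c (Cycs) rose by 0.43, 0.31 and 0.33. The 2 mitochondrially encoded mRNAs in the table, Cytb and mt-Nd4, did not pass (0.10 and −0.01). Carriers of the inner membrane varied most, with 9 higher and 16 lower of 40 (median −0.183). Slc25a32, the folate carrier, was at 31.7, 35.00, 33.1, 41.1 and 28.6 CPM in the fasted and 10.8, 11.7, 9.11, 10.1 and 11.1 CPM in the refed livers (−1.68, adjusted p = 6.33e-07), and Slc25a34 and the pyrimidine carrier gene Slc25a33 fell by 2.38 and 1.71. The iron importer gene of mitochondria, Slc25a37, rose by 0.53 and Slc25a44 by 0.60. Import and chaperone genes were divided, 12 higher (6 without fasted 2_b1) and 6 lower (3 without refed 2_b1, 3_b1 or 4_b1, or with upper-quartile scaling) of 33, with Tomm5 at 0.49 and Grpel2 at −1.42.

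Of 34 tested genes of NRF2 and glutathione, 16 (47.1%) were higher, 2 lower and 16 not called (median 0.208), 10 being higher without both fasted 2_b1 and 1_b2, with Srxn1, which restores peroxiredoxins, at 0.92, Gclc, the limiting enzyme of glutathione synthesis, at 0.49 and Gstm4 at 0.85. Of 42 genes of the Cyp1, Cyp2 and Cyp3 families 4 were higher (9.52%) and 7 lower (16.7%), both smaller shares than over all genes. Cyp2e1 was among the lower genes (−0.69) and Cyp2u1 among the higher ones (1.54). Sulfation and glucuronidation had 5 higher (17.9%) and 4 lower (14.3%) of 28, with Papss1, which makes the sulfate donor, at 0.79. Genes that share sequence, such as those of Cyp2, Sult2a and Mup, are uncertain. Metal and heme genes were called in both directions somewhat more often than all genes, 15 higher (30%) and 17 lower (34%) of 50. The zinc importer genes Slc39a14 and Slc39a6 fell by 0.75 and 1.22, as Mt1 and Mt2 did, and the magnesium carrier gene Slc41a2, the iron carrier gene Slc11a2 and the heme enzyme genes Ppox and Alad rose by 1.79, 0.58, 0.62 and 0.57.

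Bile acid genes were called in 8 of 25 (32%) in each direction, with 5 lower without both fasted 2_b1 and 1_b2. Slc51b, listed as Ostb, a subunit of the basolateral bile acid exporter, rose from 0.0347 ± 0.0270 to 0.477 ± 0.0752 CPM (3.67, adjusted p = 2.80e-05). These levels are very low, and the size of the fold change rests on few reads in the fasted livers. The canalicular exporter gene Abcb11 rose by 0.55, and the phospholipid flippase gene Abcb4 and Abcc2 fell by 0.93 and 0.69. Zonation markers were called at shares close to those of all genes. Pericentral genes, which answer to Wnt, were higher in 7 (31.8%) and lower in 6 (27.3%) of 22: Cldn2 and Avpr1a rose by 1.17 and 1.13, and Znrf3 and Slc1a2 fell by 1.04 and 1.38. Periportal genes were higher in 3 (16.7%) and lower in 5 (27.8%) of 18, with E-cadherin (Cdh1, 1.21) and histidase (Hal, 0.73) up and serine dehydratase (Sds, −1.56) down.

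Interferon-stimulated genes rose. Of 29 tested, 17 were higher and 1 lower, and the median log2 fold change was 0.406. Oasl1 was at 4.29, 5.20, 5.01, 3.90 and 6.39 CPM in the fasted and 14.5, 18.2, 13.9, 24.5 and 20.1 CPM in the refed livers (1.89, SE 0.16, adjusted p = 1.05e-05). The RNA sensor genes Ddx58 and Ifih1 rose by 0.90 and 0.48, the transcription factor gene Stat2 by 0.41, and the peptide transporter gene Tap1 by 0.58. Of 14 antigen presentation genes 2 were higher, Tap1 and H2-Q6 (1.005), and the class I gene H2-K1 was at −0.08 (adjusted p = 0.288).

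Marker lists of other liver cells were checked beside these results. Of 12 hepatocyte markers, 1 was higher and 4 lower, and their summed level was 133372 to 177397 CPM in fasted and 136849 to 144495 CPM in refed livers. The libraries thus carried the markers of the labelled tissue. All 15 Kupffer cell and macrophage markers had negative log2 fold changes (median −0.443), but only 1 passed, Slc40a1 (−0.45). The count was 3 with DESeq2, without the batch term or over all 20 libraries, and 2 without fasted 2_b1. The summed level of these markers, 223 to 588 CPM in fasted livers, held that of refed livers, 228 to 300.3 CPM. The highest fasted sum was that of 2_b1, and without that library the median of the list was 0.104. All 13 sinusoidal endothelial markers were negative too (median −0.202), and 5 passed, among them Stab1 (−0.84) and Lyve1 (−0.80), or 10 without fasted 4_b1 and 3 without fasted 1_b2. Their summed level was 200.1 to 327 CPM in fasted and 225 to 245 CPM in refed livers. None of 14 stellate cell markers passed (median 0.152), 2 of 8 cholangiocyte markers were higher, among them Spp1 (0.23, a call lost when any of 6 libraries was left out), and 1 of 5 tested lymphocyte markers, Cd4 (1.06). Of 4 tested adipocyte markers 2 were higher, Car3 (1.28) and Pparg (0.68), both of which hepatocytes also express, and adiponectin (Adipoq) was at 0 to 0.0948 CPM over all 10 libraries. The part of macrophage and endothelial RNA in the genes that fell was not tested.

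The lipid lists are given for scale. All 24 tested cholesterol synthesis genes were higher (median 1.592), 16 of 18 fatty acid synthesis genes were higher and 1 lower (median 1.515), and 22 of 36 genes of fatty acid oxidation and ketogenesis were lower and 1 higher (median −0.402). Srebf1 was at 83.5, 67.3, 37.3, 55.4 and 92.8 CPM in the fasted and 368, 377, 266, 358 and 463 CPM in the refed livers (2.46).

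**Figure D4:**
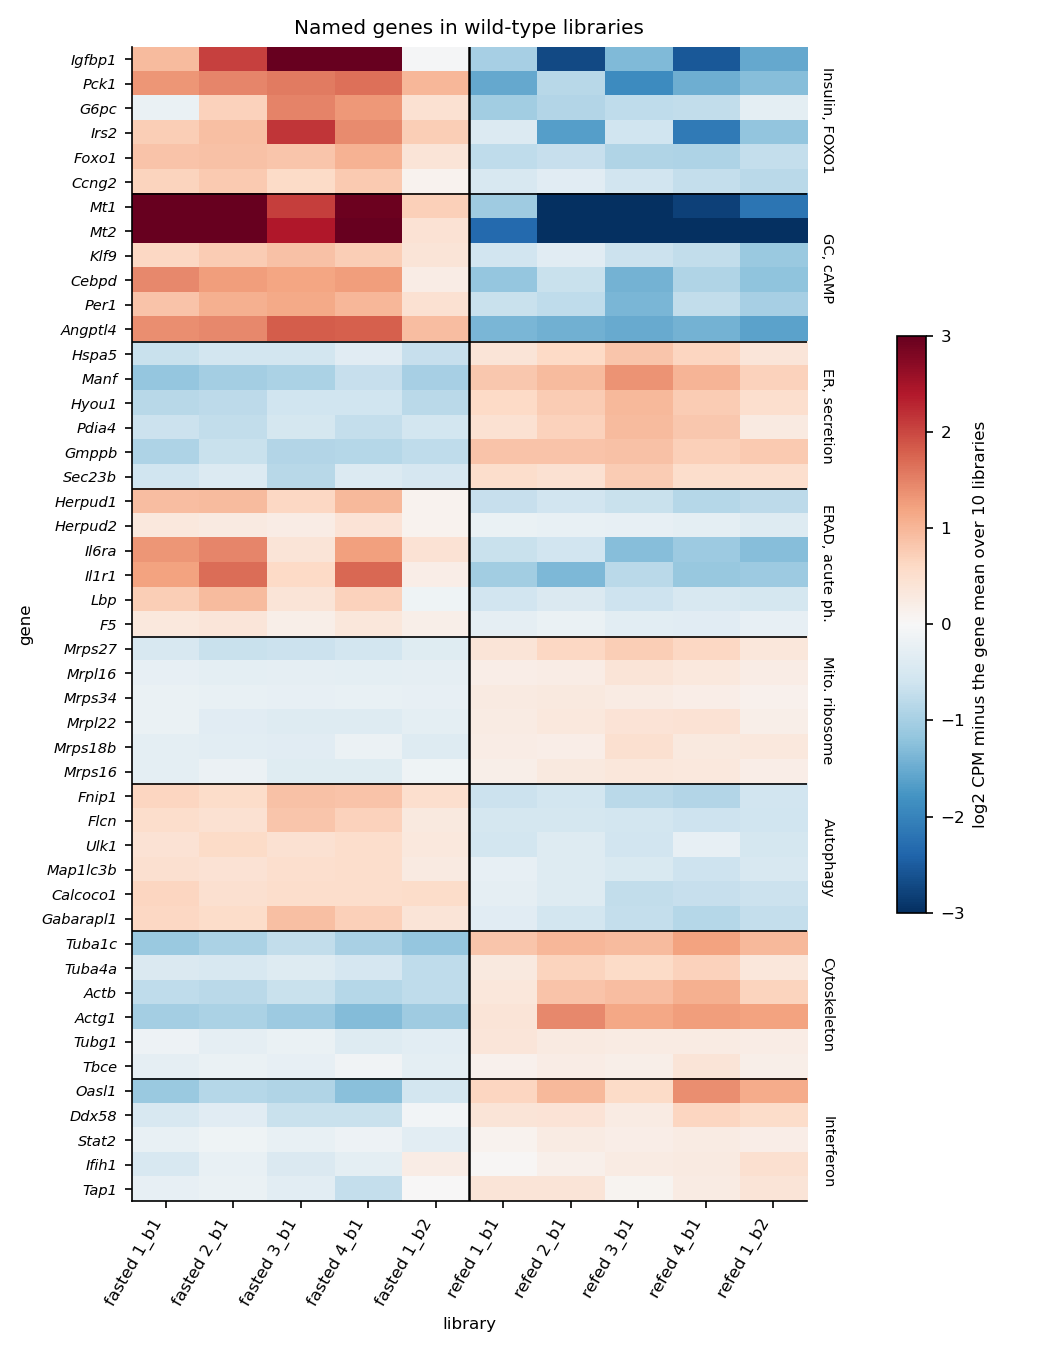
Level of 47 named genes (rows, grouped by list) in the 10 wild-type libraries (columns), as log2 CPM minus the gene's mean over the 10 libraries; red is above and blue below that mean, clipped at ±3. Fasted 1_b2 is paler than the other fasted libraries in the rows of hormone targets.

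The refeeding response was set beside that of the 10 livers with hepatocyte K556R Prox1, which share no library with it. In these livers feeding and batch were not balanced: the 5 fasted ones were 4 of batch 1 and 1 of batch 2, and the 5 refed ones 2 of batch 1 and 3 of batch 2. With batch as a term, 4511 of 13519 genes (33.4%) were called. Of the genes called in wild type, 3948 were called in the same direction in K556R livers, which is 59.2% of the wild-type calls and 87.5% of the K556R calls. Of 3233 genes higher in wild type and tested in both, 3156 had the same sign in K556R livers and none was called lower, and of 3417 lower genes 3337 had the same sign and none was called higher. The genes named here were chosen after their values were seen. For Hspa5 the log2 fold change was 1.13 in wild-type and 0.96 in K556R livers, for Herpud1 −1.44 and −1.82, for Ppp1r3g −7.41 and −5.35, for Map1lc3b −0.88 and −0.997, for Oasl1 1.89 and 2.28 and for Prox1 −0.74 and −0.53. Other named genes had values in K556R livers that were smaller or of the other sign. The log2 fold change was 1.33 in wild-type and 0.38 in K556R livers for Pklr, 1.14 and 0.05 for Me1, 1.03 and 0.36 for Dak and 2.27 and 1.13 for Thrsp, with unadjusted p = 0.00118, 0.00205, 1.35e-04 and 0.00500 for the interaction in edgeR's test. For Gpd1 it was 0.47 and −0.08, and for Marco, high in fasted 2_b1 alone, −1.93 and 0.40. None of these differences passed in edgeR after adjustment over all genes. The test of the difference between the genotypes, an interaction term over all 20 libraries, called 0 of 13894 genes (0%) with edgeR and 2 with DESeq2. With edgeR, 553 of the 13894 had an unadjusted p under 0.05, which is fewer than the 1 in 20 that chance alone gives. The smaller count of calls in K556R livers is therefore not a tested difference between the genotypes, and the part of the unequal batches in it was not tested.

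**Figure D5:**
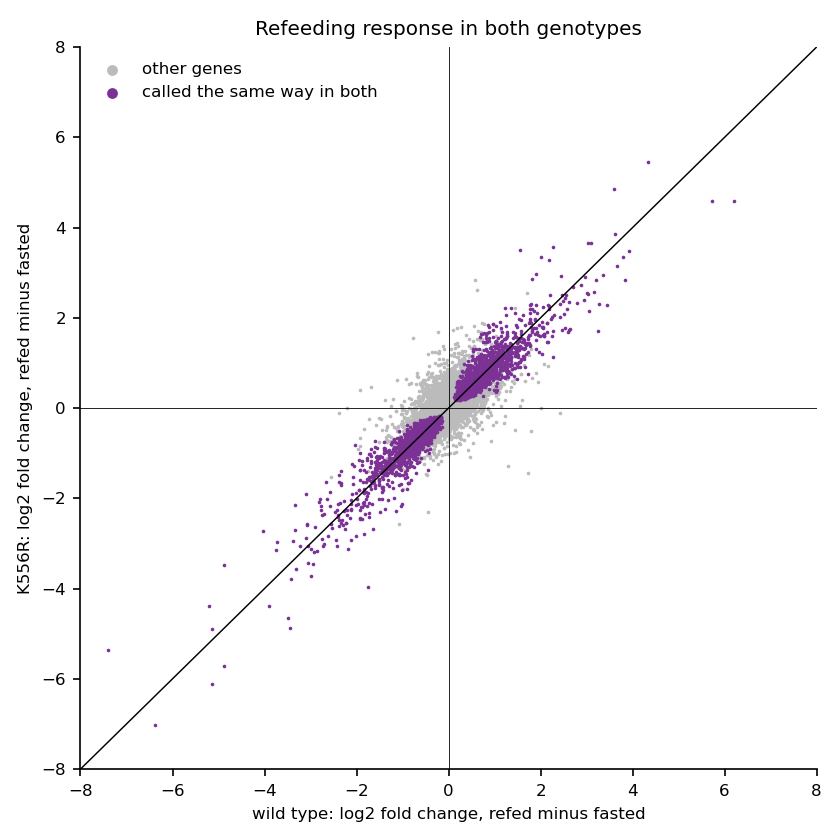
Log2 fold change of refed against fasted livers in wild-type (horizontal axis) and K556R mice (vertical axis) for each gene tested in both; grey points are genes called in neither or in 1 comparison, coloured points are the 3948 genes called the same way in both, and the line marks equal values. By that choice, coloured points lie only in the quadrants where both changes have the same sign. Of genes called in wild type and tested in both, 3156 of 3233 higher and 3337 of 3417 lower ones had the same sign.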

How the data were processed

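Libraries were made from mouse liver RNA and sequenced by the authors, who deposited 1 table of raw read counts per gene for 20 libraries, 5 per group of genotype and feeding. The submitters' processing notes name STAR, HTSeq, TopHat, STAR-Fusion, DESeq2, edgeR and the build mm10. Roles, versions, annotation and strand use were not given in the sources used here, so reads of overlapping or near-identical genes cannot be told apart. Some symbols in the table are older ones.

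The deposited counts of the 10 wild-type libraries were tested with edgeR 4.0.16 (R 4.3.3) after filtering on a minimum count of 10 and a total of 15 (filterByExpr) and TMM scaling, with quasi-likelihood fits, batch as an added term and Benjamini-Hochberg adjustment over all genes; the threshold was 0.05. CPM (counts per library of 1000000) were computed from the counts and the scaled library sizes. The SE is the absolute log2 fold change divided by the square root of F. The procedure was tested on simulated data in which few genes changed, as many up as down. That did not test the scaling where many genes change. Repeats were grouped by their labels. K556R libraries, whose batches were unequal between fasted and refed, were fitted with the same terms, and the difference between genotypes by an interaction term over all 20 libraries. Alternatives used DESeq2 1.42.0, limma 3.58.1 (voom), other scalings and filters, fits without the batch term, with a replicate block, with batch 1 alone, and without each library in turn.

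The 69 gene lists come from general knowledge. The lists and the comparison were chosen with earlier results of these data known. Genes named are, in each direction, the 12 with the lowest p and the 8 with the largest fold change (mean log2 CPM of at least 1, clone and model names left out, no overlap between groups for the latter), up to 6 per list, and a few fixed genes; others were chosen after their values were seen, as were Adipoq and the neighbouring genes of the closing section. From the translation factor list, older symbols of Argonaute genes and kinases of eIF2 were removed after the list was seen. A few genes that meet this rule are not reported here. Dixon's test was run on the levels of each named gene in each group of 5. Promoter sequences are from RefSeq (GRCm38.p6) and gene positions from GENCODE (GRCm38).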

Additional observations from a re-analysis of the deposited data

Results flagged for a closer look

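In 37 of 576 groups of 5 libraries checked (6.42%), counting each named gene in fasted and in refed livers, 1 library stood apart from the other 4 by Dixon's test (gap over range above 0.71); chance gives about 1 in 20. Values are CPM, and no cause was tested.

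Fasted 1_b2, from the second batch, had 14 of them. It was the highest fasted library for Acaca (140), Aqp8 (30.3), Car3 (1986), Eef2k (7.48), Inhba (2.06), Ptk6 (0.450), Rassf6 (8.36) and Tomm5 (14.5). It was the lowest for Cebpd (1.52), Csnk1d (79.4), Hnf4a (742), Klf15 (158), Klhl21 (61.3) and Psmd9 (40.3). In each of these 14 its level lay on the side of the refed libraries, as did its place on the first principal component. For Acaca the other fasted libraries were at 72.8 to 89.4 CPM, and for Hnf4a at 959 to 1020.2 CPM.

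Fasted 2_b1 was high for the macrophage gene Marco (20.4, beside 0.985 to 1.70) and low for Tmx2 (34.6). Fasted 3_b1 was high for the ER chaperone genes Calr (450.3) and Pdia6 (232) and low for Gmppa (15.4), Insr (214) and Lars (23.1). Fasted 4_b1 was high for Ltv1 (12.9).

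Among refed libraries, 1_b1 was high for Aass (407), Eif4b (188), Mt2 (1.17) and Tubg1 (35.5) and low for Psmd14 (41.4). Refed 2_b1 was high for Socs3 (6.97, beside 2.86 to 3.66) and low for Cycs (102). Refed 3_b1 was high for Alg12 (13.98), Cad (25.7), Sec23b (78.2), Srms (3.40), Tmed3 (24.3) and Tomm5 (20.4) and low for Abcb4 (181). Refed 1_b2 was high for the exportin gene Xpo1 (42.7, beside 29.8 to 32.6).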

How the results depend on the processing

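The count of 6673 called genes lay between 5990 and 6512 when each library was left out in turn, with 2904 to 3295 higher and 3086 to 3327 lower. With the repeat number as a replicate block it was 6601 (3201 higher, 3400 lower), and 6345 of the 6673 were called in the same direction. Deviations of same-numbered fasted and refed libraries from their group means correlated at 0.09, 0.12, 0.20, −0.01 and 0.12 over genes, 3 of 5 pairs being over 0.1, and those of the 20 differently numbered pairs at −0.18 to 0.19. Of 10 libraries 6 correlated best with their own number, a hint from the data only. As the labels give no shared source and not every pair exceeded 0.1, the number was not treated as a pairing. Upper-quartile scaling gave 6907 genes (4073 higher, 2834 lower), and it kept every gene called higher and 2834 of those called lower. Without both fasted 2_b1 and 1_b2, a setting chosen after seeing the data, 5800 genes were called (2770 higher, 3030 lower), 5544 of them in the same direction as with all libraries. Batch 1 alone kept 6086 calls in the same direction. A threshold of 1 on the absolute log2 fold change left 920 genes (465 higher, 455 lower), and DESeq2 called 2 interaction genes where edgeR called 0.

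Of 280 named genes that were called, 267 were called in the same direction under all 22 alternatives and none reversed. Another 7 lost the call when 1 library was left out (Asl, Rpl11, Rpl35, Rps26, Rpsa, Socs3 and Spp1). Genes were named largely for a low p or a large fold change in the main fit. That choice favours calls that hold, so the 267 do not speak for called genes in general. The replicate block lost 1, the fit over all 20 libraries 9, and leaving out both fasted libraries 8. Of 64 list counts of 7 or more, 12 moved by over 1.5 times under at least 1 alternative, and those values are given with the results. Of 55 counts of 1 to 6, 31 did, so such small counts are unsteady. The cause of these shifts was not tested. Of 45 lists with an absolute median of at least 0.1, 3 changed sign under some alternative: the macrophage, neutrophil and amino acid transporter lists. Depth, at 34221619 counts in the smallest library, limits the genes of low CPM, and the interaction rests on 5 libraries per group.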

Other observations

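Some genes that changed strongly lie side by side. Among 12472 tested genes with a position in the GENCODE annotation, 5062 neighbouring pairs were at most 10000 bases apart, and in 6 pairs both genes were called in the same direction with an absolute log2 fold change of at least 1.5. Pairs that changed in opposite directions were not counted. Whether 6 is more than unrelated neighbours would give was not tested. The metallothionein genes Mt2 and Mt1 on chromosome 8 (−6.38 and −4.89) lie 5513 bases apart. On chromosome 9, Bud13 (−3.34), a gene of the spliceosome, begins 364 bases after the end of Zfp259 (−2.28), an older symbol of the zinc finger gene Zpr1; these are chr9:46273064-46282643 for Zfp259 and chr9:46283008-46299110 for Bud13, both on the plus strand of GRCm38. Reads that run past the end of 1 gene into the next were not examined. On chromosome 8 the amino acid carrier gene Slc7a2 (−2.34) is followed by Pdgfrl (−3.10) after 3903 bases. On chromosome 4, Btbd19 (−3.74) and the polo-like kinase gene Plk3 (−2.41) are 2929 bases apart, and on chromosome 2 the related tyrosine kinase genes Ptk6 (3.60) and Srms (2.46) are 2772 bases apart. Ptk6 was at 0.450 CPM in fasted 1_b2 and at 0.0298 to 0.131 CPM in the other fasted libraries. The size of its fold change therefore rests on few reads. The sixth pair, Acaca (1.52), the acetyl-CoA carboxylase gene of fatty acid synthesis, and Gm11437 (2.04), overlaps on opposite strands, and without a known strand setting their reads cannot be told apart.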
